A study of Homo sapiens with 4 samples.

Results

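Glycolysis genes and hypoxia-responsive genes were followed in 2 prostate cancer cell lines after knockdown of DDX52, a DEAD-box RNA helicase. The set held 42 named genes of the 60671 Ensembl genes in the deposited tables, and each of the 42 symbols matched 1 identifier. The genes were chosen by function and with their log2 ratios in these libraries in view. The opposite sign of the median in the cell lines was among the values seen. The medians, counts of direction and correlation of the members therefore describe the choice and support nothing. 22RV1 is a human prostate carcinoma line grown from a xenograft and PC3 a line from a bone metastasis of prostate cancer. All 4 groups had been infected with lentivirus made from the PLKO.1 vector and selected with puromycin. They were 22RV1 shCON, 22RV1 shDDX52, PC3 shCON and PC3 shDDX52, where shCON is a control shRNA and shDDX52 an shRNA against DDX52. A single shRNA sequence was used against DDX52, and the culture conditions describe no treatment with low oxygen.

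Glycolysis splits glucose into pyruvate in the cytosol, and lactate dehydrogenase turns pyruvate into lactate, which leaves the cell through monocarboxylate transporters. Hypoxia-inducible factors (HIFs) are transcription factors made of an oxygen-controlled alpha subunit, HIF1A or EPAS1, and the partner ARNT. In the presence of oxygen, EGLN prolyl hydroxylases mark the alpha subunits for degradation through VHL, so HIF activity is set mainly at the protein level and mRNA of the subunits does not measure it. HIFs raise transcription of many glycolytic enzymes, of kinases that hold pyruvate back from the mitochondria, and of genes for acid removal, vessel growth and mitophagy. Several glycolytic genes are also known targets of c-Myc, the transcription factor the study was about.

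With 1 library per condition there are no replicates, so no difference was tested and none has a p-value or an error. Values were TPM, the length-corrected share of transcripts, which can be compared between genes but keep no sequencing depth, so the reads behind a value are unknown. The log2 ratio used throughout was log2((TPM shDDX52 + 1) / (TPM shCON + 1)), for genes that reached 1 TPM in 1 or both libraries of a cell line. This scale shrinks the change of genes near 1 TPM. Where values are given as a pair for a cell line, that with shCON comes first, and paired log2 ratios give 22RV1 before PC3. DDX52 was 4.88 TPM in 22RV1 with shCON and 1.2 TPM with shDDX52, and 9.20 and 2.07 TPM in the PC3 libraries. KLK2, a prostate kallikrein, was 32.6 and 23.1 TPM in the 22RV1 libraries and listed at 0 in both PC3 libraries, while CAV1 was 0.45 and 0.39 TPM in 22RV1 and 162 and 130 TPM in PC3, shCON first. VIM, a mesenchymal marker of PC3, was 12.6 and 66.7 TPM in PC3 and 8.08 and 5.57 TPM in 22RV1. The 6 stromal and leukocyte markers summed to 13.7 and 7.65 TPM in 22RV1 and 47.2 and 43.9 TPM in PC3, of which CD68 was 8.82 and 2.4 TPM in 22RV1 and 38.4 and 35.6 TPM in PC3. COL1A1 was 2.81 and 4.77 TPM in 22RV1 and 8.65 and 7.84 TPM in PC3, and DCN was 1.87 and 0.28 TPM in 22RV1 and listed at 0 in PC3. PTPRC, CD3E and COL3A1 lay between 0 and 0.39 TPM. The rRNA share of TPM was 1.21% and 0.0872% in 22RV1 and 0.101% and 3.13% in PC3, and that of nuclear protein-coding genes 85.0% and 83.7% in 22RV1 and 88.4% and 81.3% in PC3. TPM is a share, so where rRNA is higher other genes are lower, and results were also computed with TPM rescaled to nuclear protein-coding genes.

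In PC3 cells most of the set was higher with shDDX52, and in 22RV1 cells most of it was slightly lower. Among the 42 members tested in PC3, 36 were higher with shDDX52 and 6 lower, where 46.3% of all 14262 genes were higher and 53.5% lower. Among the 40 members tested in 22RV1, 15 were higher and 25 lower, where 40.9% of all 14438 genes were higher and 58.8% lower, shares close to those of the members. The median log2 ratio of the members was 0.23 in PC3 and −0.14 in 22RV1, against −0.036 and −0.076 for all genes. SLC2A3 and CA9 did not reach 1 TPM in 22RV1. Nearly all of these differences were small: 7 members were at least 1.5-fold higher in PC3, where 8.95% of all genes were, and 0 were at least 1.5-fold lower, where 9.84% of all genes were. In 22RV1, 2 members were at least 1.5-fold higher and 2 at least 1.5-fold lower, where 5.61% and 8.47% of all genes were. At 2-fold, 1 member was higher in 22RV1 and 0 lower, where 2.24% and 2.86% of all genes were, and 1 was higher in PC3 and 0 lower, where 2.86% and 3.44% were. Among genes with at least 10 TPM, 32 of 36 members were higher in PC3, where 41.7% of all 7500 genes were, and 7 at least 1.5-fold higher, where 6.21% were. In 22RV1 the same minimum left 27 members, of which 2 were at least 1.5-fold higher and 0 lower, where 2.69% and 5.32% of all genes were. After rescaling to nuclear protein-coding genes, the median of the members was 0.36 in PC3, against 0.087 for all genes. Then 37 of 42 members were higher in PC3 and 15 of 40 in 22RV1, and the shares of all genes were not computed.

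**Figure D1:**
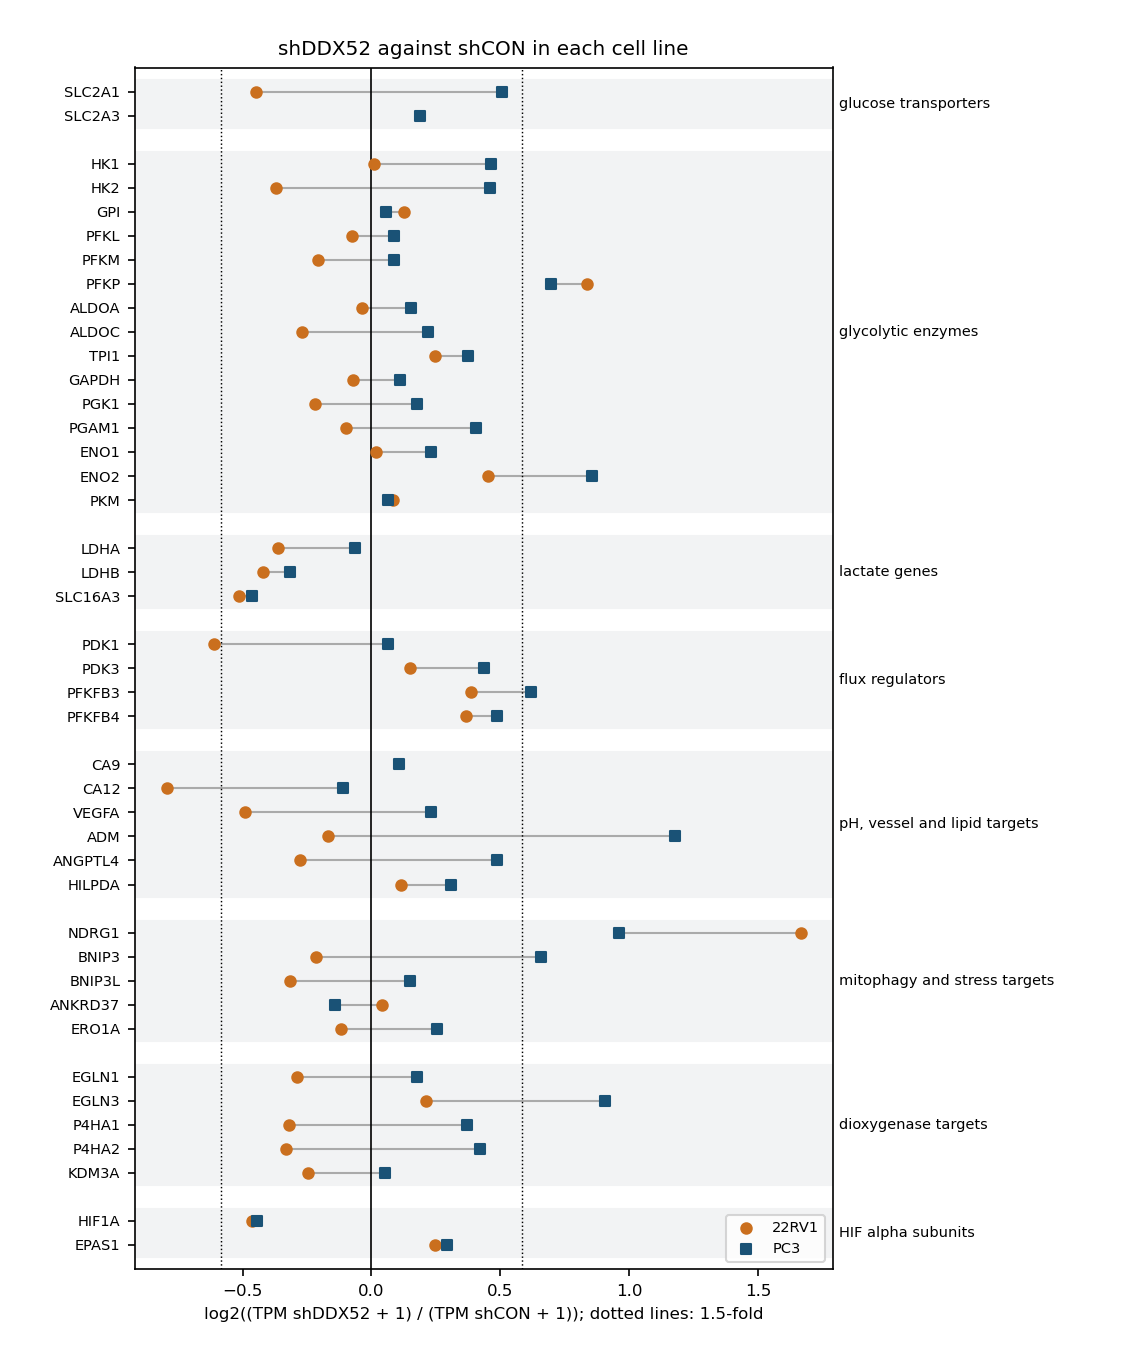
Log2 ratio of shDDX52 over shCON for each of the 42 genes (x axis, log2 scale), with 22RV1 as orange circles, PC3 as blue squares and dotted lines at 1.5-fold. PC3 squares lie right of 0 for 36 genes, whereas SLC16A3, LDHB and HIF1A lie left of 0 in both cell lines.

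The glucose transporter SLC2A1 (GLUT1) was 51.7 TPM in 22RV1 with shCON and 37.7 TPM with shDDX52, and 107 and 152 TPM in the PC3 libraries. Its log2 ratio was −0.45 in 22RV1 and 0.51 in PC3. The second transporter, SLC2A3 (GLUT3), was listed at 0 in both 22RV1 libraries and was 1.43 and 1.77 TPM in PC3.

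The 15 glycolytic enzymes were all higher in PC3 with shDDX52, by log2 ratios from 0.058 to 0.86, where 46.3% of all genes were higher. In 22RV1 7 were higher and 8 lower, where 40.9% and 58.8% of all genes were. The summed TPM of the 15 enzymes was 13650.4 in PC3 shCON and 15454 in PC3 shDDX52, a difference of 13.2%. In 22RV1 it was 16718 and 16861 TPM, a difference of 0.855%. Only PFKP and ENO2 among these enzymes passed 1.5-fold in either cell line. GAPDH, which oxidises glyceraldehyde 3-phosphate, had the highest level of the set, with 6696 and 6378 TPM in 22RV1 and 4612 and 4977 TPM in PC3. Its log2 ratios were −0.070 and 0.11, and the sign in 22RV1 turned when ratios were centred on the median of all genes, as did that of ALDOA, the main aldolase.

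PFKP, the platelet-type phosphofructokinase at the main control step of glycolysis, was higher in both cell lines. It was 69.2 TPM in 22RV1 with shCON and 124 TPM with shDDX52 (log2 ratio 0.84). In PC3 it was 131 and 213 TPM (log2 ratio 0.70). A share within a gene family does not depend on how a library was scaled. The PFKP share of phosphofructokinase TPM was 17.0% and 28.7% in 22RV1, shCON first, and 30.0% and 39.6% in PC3. The liver and muscle forms differed little by level. PFKL was 210.3 and 199 TPM in 22RV1 and 250.1 and 266 TPM in PC3, and PFKM was 127 and 110.2 TPM in 22RV1 and 55.0 and 58.5 TPM in PC3.

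ENO2, the neuron-type enolase, was 65.2 TPM in 22RV1 with shCON and 89.5 TPM with shDDX52. In PC3 it was 21.0 and 38.7 TPM, and the log2 ratios were 0.45 and 0.86. It remained a minor form beside ENO1, with 2.44% and 3.28% of the enolase TPM in 22RV1 and 0.802% and 1.26% in PC3. ENO2 is also used as a neuroendocrine marker. Of the other markers of that kind, SYP was 19.7 and 35.6 TPM in 22RV1 and 0.33 and 0.4 TPM in PC3, CHGA was at most 0.16 TPM and INSM1 was listed at 0 in all 4 libraries. The part of such cells in the ENO2 values was not tested, and in bulk RNA fewer cells of a type and less RNA per cell cannot be told apart.

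The remaining enzymes moved less. TPI1, which interconverts the triose phosphates, was 2142 and 2543 TPM in 22RV1 and 1012 and 1311 TPM in PC3 (log2 ratios 0.25 and 0.37). PGAM1, a phosphoglycerate mutase, was 492 and 459 TPM in 22RV1 and 483 and 641 TPM in PC3. The hexokinases split by cell line. HK1 was 123 and 124 TPM in 22RV1 and 96.4 and 133 TPM in PC3, and HK2, the more inducible form, was 18.5 and 14.1 TPM in 22RV1 and 17.2 and 24.0 TPM in PC3. Despite this, HK2 kept 15.1% and 15.2% of the hexokinase TPM in PC3, since both forms were higher there. PKM, the pyruvate kinase of the last step, differed by 0.084 in 22RV1 and 0.062 in PC3 on the log2 scale.

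**Figure D2:**
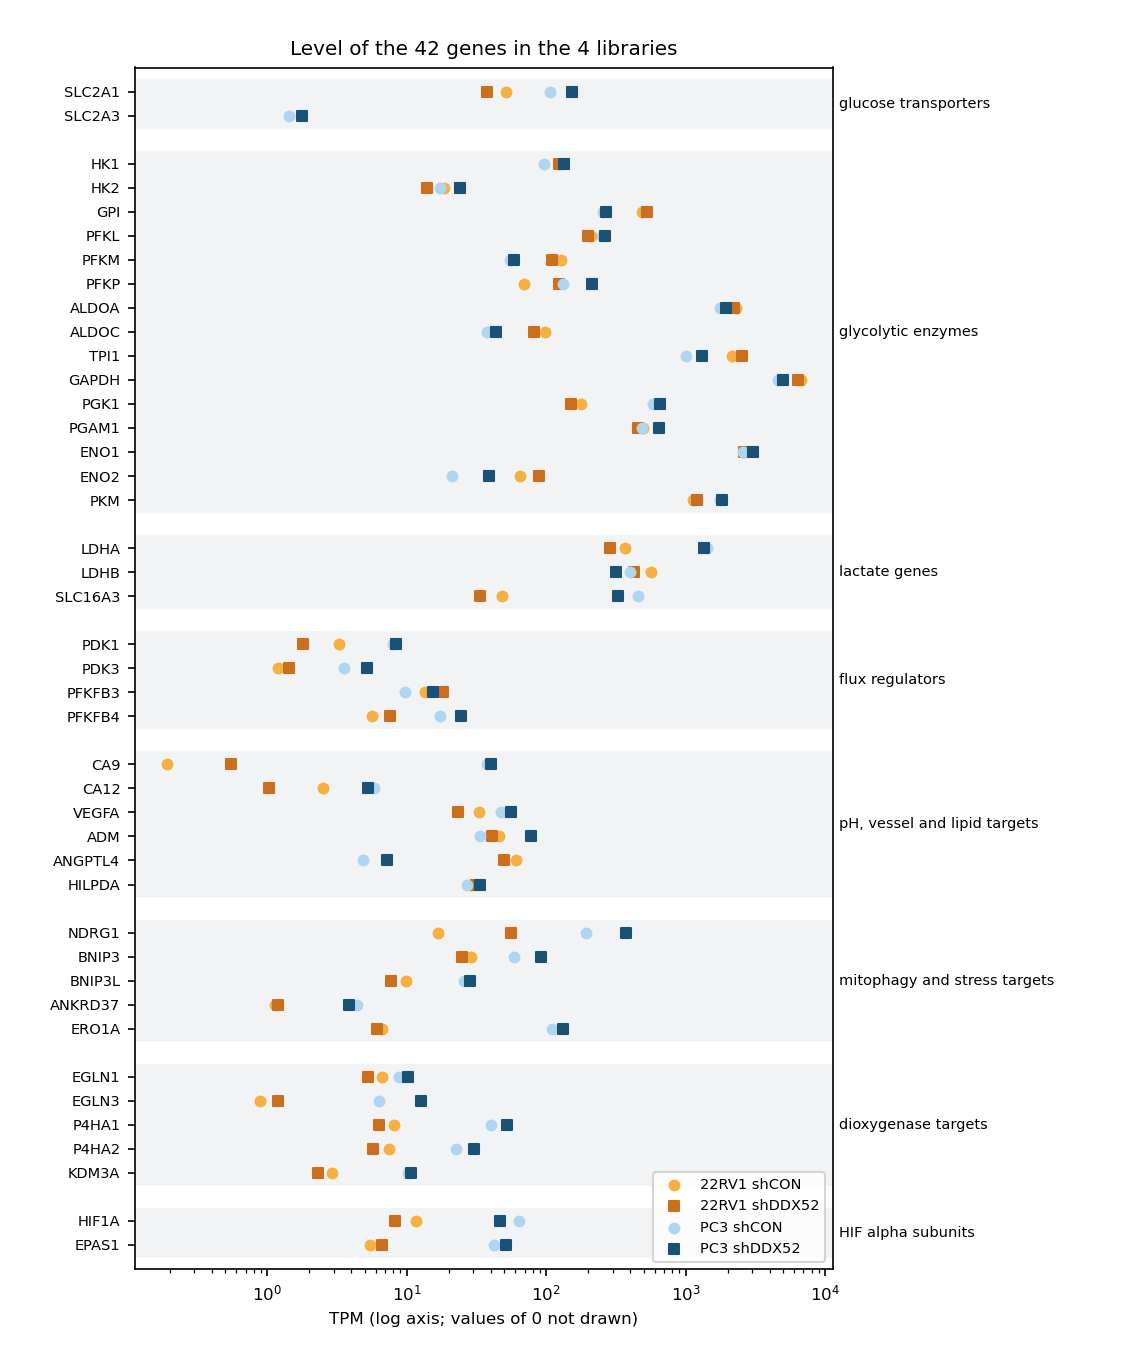
TPM of each of the 42 genes (x axis, log scale) in the 4 libraries, with circles for shCON, squares for shDDX52, orange for 22RV1 and blue for PC3. GAPDH is highest at 6696 TPM, whereas the flux regulators and dioxygenases reach at most 52.1 TPM.

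LDHA, LDHB and SLC16A3 were lower with shDDX52 in both cell lines, although none reached 1.5-fold and LDHA in PC3 was near 0. SLC16A3 (MCT4), which exports lactate, was 48.0 and 33.3 TPM in 22RV1 and 454 and 329 TPM in PC3 (log2 ratios −0.51 and −0.46). LDHB, the form that favours lactate oxidation, was 568 and 425 TPM in 22RV1 and 398 and 319 TPM in PC3 (log2 ratios −0.42 and −0.32). LDHA, the form that favours lactate production, was 369 and 287 TPM in 22RV1 (log2 ratio −0.36). In PC3 it was 1427 and 1364 TPM (log2 ratio −0.065) that turned to 0.065 after rescaling to nuclear protein-coding genes and to 0.039 without mitochondrially encoded, rRNA and snRNA genes. SLC16A3 and LDHB kept their sign under each scaling. The median of the 3 lactate genes lay 0.54 below that of the transporters and enzymes in PC3 and 0.37 below it in 22RV1, on the log2 scale. SLC16A1 (MCT1), the other lactate carrier expressed here, was 18.5 and 13.8 TPM in 22RV1 and 20.6 and 20.8 TPM in PC3. LDHA held 39.4% and 40.4% of the lactate dehydrogenase TPM in 22RV1 and 78.2% and 81.0% in PC3.

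The flux regulators set how fast sugar enters glycolysis and whether pyruvate reaches the mitochondria. PFKFB3 and PFKFB4 make fructose 2,6-bisphosphate, the activator of phosphofructokinase, and both were higher in both cell lines. PFKFB3 was 13.6 and 18.1 TPM in 22RV1 and 9.69 and 15.4 TPM in PC3 (log2 ratios 0.38 and 0.62). PFKFB4 was 5.61 and 7.53 TPM in 22RV1 and 17.3 and 24.7 TPM in PC3 (log2 ratios 0.37 and 0.49). TIGAR, which breaks down the same activator, was 3.09 and 0.82 TPM in 22RV1 and 6.36 and 1.77 TPM in PC3, so it was more than 1.5-fold lower in both. PDK1 inhibits pyruvate dehydrogenase. It was 3.27 and 1.8 TPM in 22RV1 (log2 ratio −0.61), and 7.99 and 8.39 TPM in PC3 (log2 ratio 0.063). PDK3 was 1.19 and 1.43 TPM in 22RV1 and 3.57 and 5.19 TPM in PC3.

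**Figure D3:**
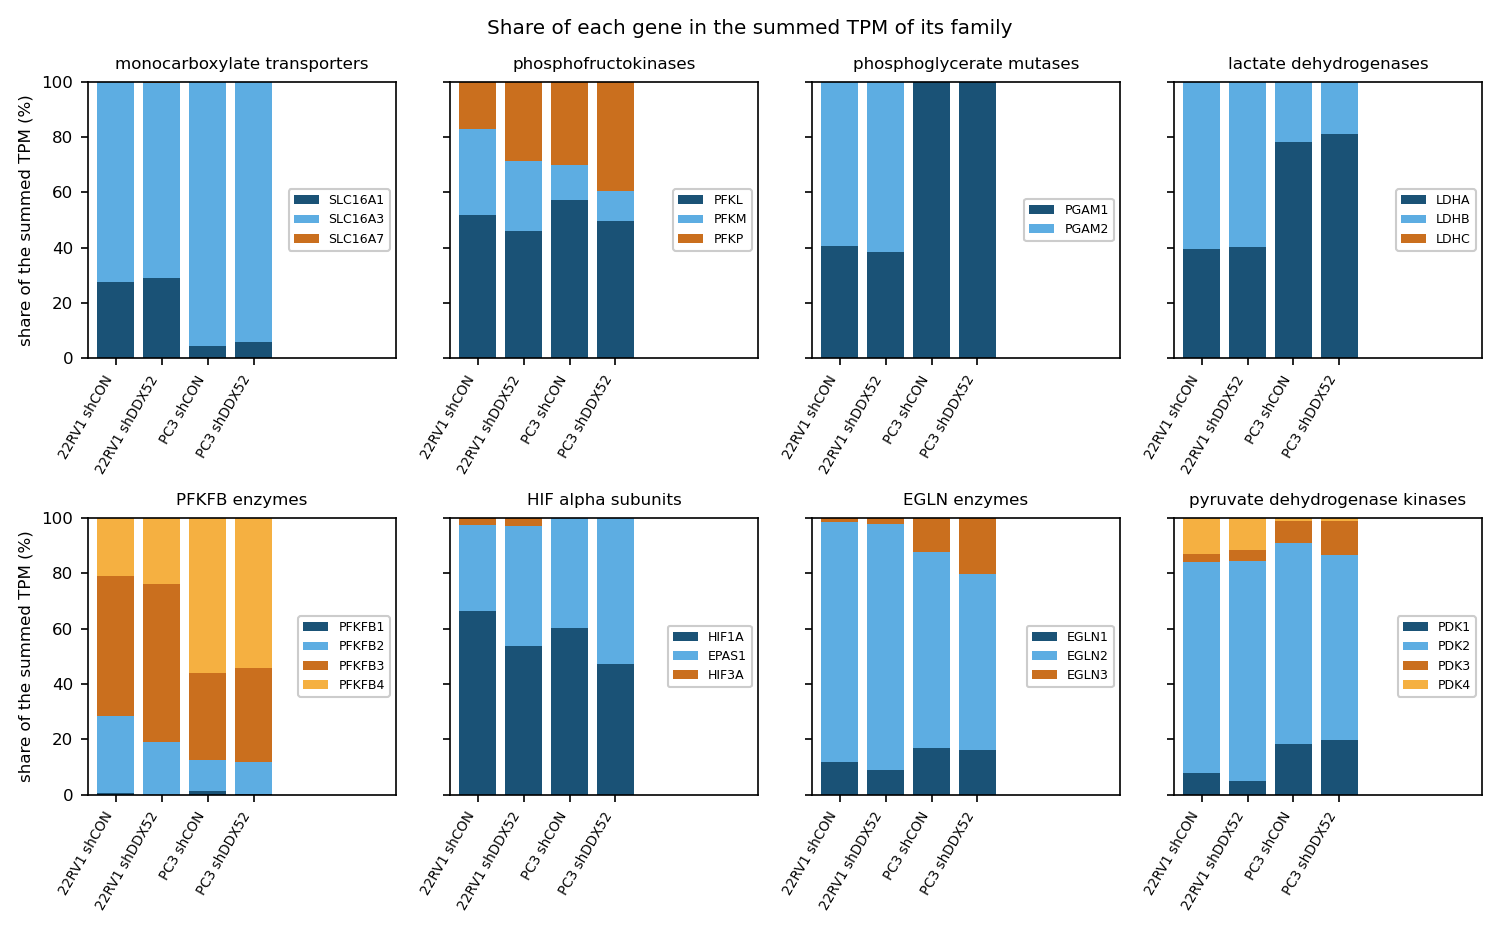
Stacked bars of the share of each gene in the summed TPM of its family (y axis, %) in the 4 libraries, for 8 families. The PFKP part is larger with shDDX52 in both cell lines (17.0% to 28.7% and 30.0% to 39.6%), and the HIF1A part is smaller (66.5% to 53.7% and 60.2% to 47.3%).

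Of the 20 HIF target genes, flux regulators included, 18 were higher in PC3 with shDDX52, where 46.3% of all genes were. In 22RV1, 12 of the 19 tested were lower, close to the 58.8% of all genes. Their median log2 ratio was 0.34 in PC3, above the 0.18 of the 20 glycolysis genes, and −0.22 in 22RV1, below the −0.077 of the glycolysis genes. HIF targets therefore lay 0.16 above the glycolysis genes in PC3 and 0.14 below them in 22RV1 on the log2 scale. These gaps compare medians over genes, which are not replicates, and were not tested. Some choices made them over 1.5 times smaller. The glycolysis median minus the HIF target median was −0.096 in PC3 and 0.079 in 22RV1 with a pseudocount of 5, −0.076 in PC3 with the flux regulators moved to the glycolysis genes, and 0.066 in 22RV1 without members that have a pseudogene copy. The groups also overlap by function, since many glycolytic enzymes are HIF targets themselves. The summed TPM of the HIF targets was 674 in PC3 shCON and 1022.5 in PC3 shDDX52, a difference of 51.7%, and 284 and 292 in 22RV1, a difference of 2.47%. Without NDRG1, left out after its values were seen, the differences were 34.2% in PC3 and −11.8% in 22RV1.

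**Figure D4:**
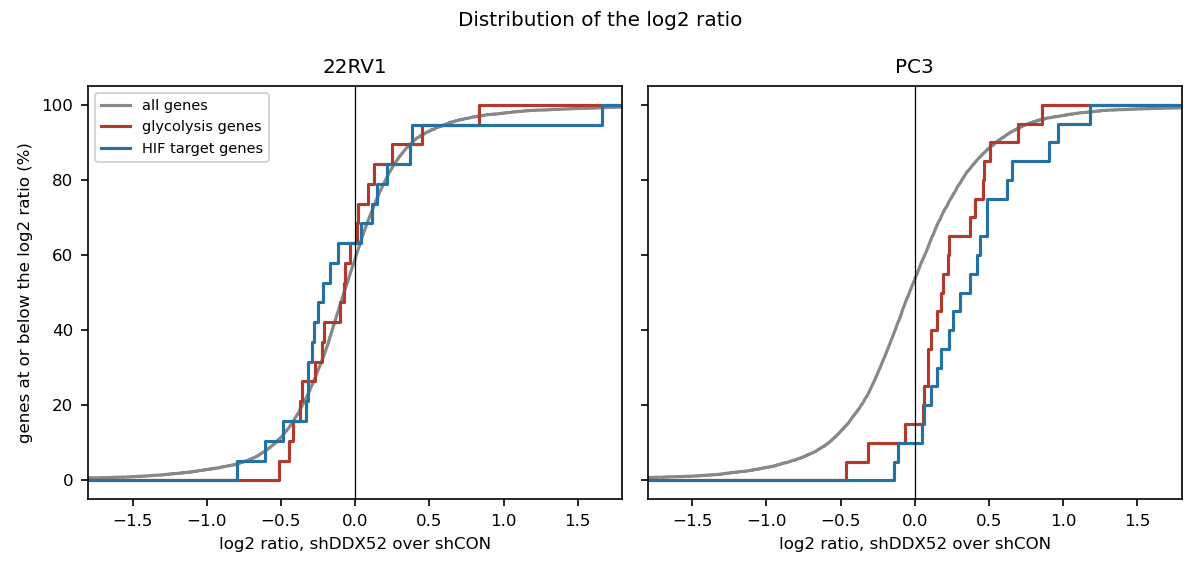
Percent of genes at or below each log2 ratio (x axis, log2 scale) in 22RV1 (left) and PC3 (right), for all genes (grey), the glycolysis genes (red) and the HIF target genes (blue). In PC3 both groups lie right of all genes, with medians of 0.18 and 0.34 against −0.036, while in 22RV1 the curves run close together.

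NDRG1, a stress- and hypoxia-induced gene, had the largest log2 ratio of the set. It was 16.8 TPM in 22RV1 with shCON and 55.5 TPM with shDDX52 (log2 ratio 1.66). In PC3 it was 193 and 376 TPM (log2 ratio 0.96). The ratio was above that of 99.2% of all genes tested in 22RV1 and 96.9% in PC3. NDRG1 and PFKP were the only members at least 1.5-fold higher in both cell lines, where 0.706% of the 12175 genes tested in both were. Among genes with at least 10 TPM in both cell lines, that share was 0.318%.

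ADM encodes adrenomedullin, a vessel-dilating peptide. It was 33.6 TPM in PC3 with shCON and 77.4 TPM with shDDX52 (log2 ratio 1.18), the only one past 2-fold in PC3 on this scale. In 22RV1 it was 46.1 and 40.9 TPM (log2 ratio −0.17). VEGFA, the main angiogenic growth factor, was 33.0 and 23.2 TPM in 22RV1 and 47.8 and 56.3 TPM in PC3 (log2 ratios −0.49 and 0.23). ANGPTL4, an inhibitor of lipoprotein lipase, was 60.3 and 49.6 TPM in 22RV1 and 4.84 and 7.18 TPM in PC3. HILPDA, a lipid droplet protein, was higher in both (log2 ratios 0.11 and 0.31).

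The carbonic anhydrases CA9 and CA12 hydrate carbon dioxide at the cell surface. CA9, often used as a marker of hypoxia, was 0.19 and 0.55 TPM in 22RV1 and 37.4 and 40.3 TPM in PC3 (log2 ratio 0.11 in PC3). CA12 was 2.52 and 1.03 TPM in 22RV1 (log2 ratio −0.79), a low level, and 5.82 and 5.31 TPM in PC3.

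BNIP3 and BNIP3L are mitophagy receptors on the mitochondrial surface. BNIP3 was 58.4 TPM in PC3 with shCON and 92.5 TPM with shDDX52 (log2 ratio 0.66), against 29.0 and 24.8 TPM in 22RV1. BNIP3L was 25.5 and 28.4 TPM in PC3 and 9.86 and 7.73 TPM in 22RV1. ERO1A, an oxidase of the endoplasmic reticulum, was 110.2 and 132 TPM in PC3 and 6.69 and 6.09 TPM in 22RV1. ANKRD37 was the only member higher in 22RV1 and lower in PC3 (log2 ratios 0.040 and −0.14) at levels from 1.14 to 4.39 TPM.

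The 5 oxygen-using dioxygenases were all higher in PC3 with shDDX52, where 46.3% of all genes were. In 22RV1, 4 of the 5 were lower and 1 higher, where 58.8% and 40.9% of all genes were. EGLN3 (PHD3), an inducible prolyl hydroxylase acting on HIF, was 6.34 and 12.8 TPM in PC3 (log2 ratio 0.91, and 2.01-fold without the pseudocount), and 0.89 and 1.19 TPM in 22RV1. It held 12.2% and 20.4% of the EGLN TPM in PC3. EGLN1 (PHD2) was 8.85 and 10.1 TPM in PC3 and 6.68 and 5.28 TPM in 22RV1. The collagen prolyl hydroxylases P4HA1 and P4HA2 went in opposite directions in the cell lines. P4HA1 was 8.13 and 6.31 TPM in 22RV1 and 40.0 and 52.1 TPM in PC3 (log2 ratios −0.32 and 0.37). P4HA2 was 7.44 and 5.7 TPM in 22RV1 and 22.4 and 30.4 TPM in PC3 (log2 ratios −0.33 and 0.42). KDM3A, a histone demethylase, had log2 ratios of −0.25 and 0.051.

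The alpha subunits themselves moved apart in the same way in both cell lines. HIF1A was 11.8 TPM in 22RV1 with shCON and 8.25 TPM with shDDX52, and 63.4 and 46.3 TPM in PC3 (log2 ratios −0.46 and −0.44). EPAS1 (HIF2A) was 5.49 and 6.69 TPM in 22RV1 and 41.9 and 51.5 TPM in PC3 (log2 ratios 0.24 and 0.29). Neither passed 1.5-fold, and both kept their signs under each scaling. HIF1A made up 66.5% of the alpha subunit TPM in 22RV1 with shCON and 53.7% with shDDX52. In PC3 its share was 60.2% with shCON and 47.3% with shDDX52, so EPAS1 was the more abundant subunit there after knockdown.

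HIF binds DNA at the letters ACGTG or GCGTG. Both were searched on both strands in the 250 bases before the most upstream RefSeq start (GRCh38.p14), for the 37 members with an entry. A match describes the sequence and is not a binding site. At least 1 match was present in 67.6% of the 37 members and in 43.1% of all 27305 genes with an entry. The member windows are rich in G and C, with a median of 69.6%, and 59.7% of the 12233 windows with at least 60% G and C held a match. Among HIF targets 13 of 16 windows held a match, and among glycolysis genes 10 of 19. ACGTG overlaps the E-box CACGTG, bound by MYC and MAX, which was in 5 member windows, 13.5% of them, against 6.46% of all windows and 9.15% of those with at least 60% G and C. Members that changed at least 1.5-fold and had a match are shown, 5′ to 3′ on the gene's strand, with every match in capitals; a match on the other strand reads CACGT or CACGC. They are BNIP3 at chr10:131981924-131982173 on the minus strand, ENO2 at chr12:6914330-6914579 on the plus strand, ADM at chr11:10304823-10305072 on the plus strand, PFKFB3 at chr10:6144671-6144920 on the plus strand and CA12 at chr15:63381847-63382096 on the minus strand.
BNIP3: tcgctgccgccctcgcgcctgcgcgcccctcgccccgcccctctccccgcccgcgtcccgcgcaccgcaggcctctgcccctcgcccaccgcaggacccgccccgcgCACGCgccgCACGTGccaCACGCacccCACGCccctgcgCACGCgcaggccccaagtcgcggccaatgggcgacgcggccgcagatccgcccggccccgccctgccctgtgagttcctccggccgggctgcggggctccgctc
ENO2: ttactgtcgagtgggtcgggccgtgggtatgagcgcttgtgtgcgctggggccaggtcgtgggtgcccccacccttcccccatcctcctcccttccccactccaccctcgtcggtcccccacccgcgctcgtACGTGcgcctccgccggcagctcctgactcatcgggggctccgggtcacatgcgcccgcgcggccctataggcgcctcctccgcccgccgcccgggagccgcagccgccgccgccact
ADM: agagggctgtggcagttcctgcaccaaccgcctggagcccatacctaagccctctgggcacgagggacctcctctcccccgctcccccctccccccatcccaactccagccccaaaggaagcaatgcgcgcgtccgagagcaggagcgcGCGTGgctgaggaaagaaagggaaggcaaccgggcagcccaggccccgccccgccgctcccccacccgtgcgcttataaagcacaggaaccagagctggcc
PFKFB3: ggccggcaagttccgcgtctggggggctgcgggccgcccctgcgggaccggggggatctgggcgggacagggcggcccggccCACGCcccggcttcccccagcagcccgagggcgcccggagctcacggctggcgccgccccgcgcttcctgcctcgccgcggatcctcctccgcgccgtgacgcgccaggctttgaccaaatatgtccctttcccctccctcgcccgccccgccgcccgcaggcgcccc
CA12: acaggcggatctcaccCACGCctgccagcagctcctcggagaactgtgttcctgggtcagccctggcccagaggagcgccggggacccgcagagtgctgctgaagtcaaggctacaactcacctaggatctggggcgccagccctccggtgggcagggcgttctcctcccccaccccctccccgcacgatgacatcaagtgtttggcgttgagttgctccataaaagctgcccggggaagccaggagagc

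The BNIP3 window held 6 matches, 1 pair of them in an E-box, and the other 4 windows held 1 match each. The windows of PFKP, EGLN3 and PDK1, which also changed at least 1.5-fold, held 0 matches, and NDRG1 was not searched. BNIP3, ENO2, ADM and PFKFB3 were at least 1.5-fold higher in PC3. In 22RV1, ENO2 and PFKFB3 were higher and BNIP3 and ADM lower, each by less than 1.5-fold. CA12 was at least 1.5-fold lower in 22RV1, at the low level of 2.52 and 1.03 TPM. Whether a match goes with the direction of change was not tested.

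With the control shRNA, the HIF side of the set was at a higher level in PC3 than in 22RV1. In shCON cells 12 of the 20 HIF targets and both alpha subunits were at least 2-fold higher in PC3, where 19.9% of all 15727 genes were. The counts in this comparison used the pseudocount of 1, whereas folds of single genes are plain TPM ratios. By plain ratios CA12 (2.31-fold) and BNIP3 (2.01-fold) were also at least 2-fold higher in PC3 shCON. Of all 42 members, 26 were higher in PC3 shCON, where 47.6% of all genes were, and 5 were at least 2-fold higher in 22RV1 shCON, where 21.3% were. The cell lines come in separate tables, and this is a comparison of 1 library with 1 library. ERO1A was 16.5-fold, NDRG1 11.5-fold, EPAS1 7.64-fold and HIF1A 5.39-fold higher in PC3 shCON than in 22RV1 shCON. ANGPTL4 was the only HIF target at least 2-fold higher in 22RV1 shCON, at 60.3 TPM in 22RV1 shCON and 4.84 TPM in PC3 shCON. Among the 20 glycolysis genes, 5 were at least 2-fold higher in PC3 shCON and 4 at least 2-fold higher in 22RV1 shCON. Those higher in PC3 included SLC16A3, by 9.45-fold, and LDHA, by 3.86-fold, and those higher in 22RV1 included ENO2, by 3.11-fold.

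The log2 ratio was higher in PC3 than in 22RV1 for 35 of the 40 members tested in both, where 53.5% of all 12175 genes were. The median difference of the log2 ratios, PC3 minus 22RV1, was 0.30 for the members and 0.043 for all genes. Of these members, 20 were lower in 22RV1 and higher in PC3, where 27.4% of all genes were, 14 were higher in both, where 18.5% were, and 5 lower in both, where 32.5% were. The remaining member, ANKRD37, was higher in 22RV1 and lower in PC3, where 21.4% were. Those lower in both were LDHA, LDHB, SLC16A3, CA12 and HIF1A. Spearman's rho between the log2 ratios was 0.49 over the 40 members and 0.012 over all 12175 genes. The members were chosen with these ratios in view, and all genes were not. These counts and the rho therefore describe the chosen genes in the same 4 libraries, and genes are not replicates.

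**Figure D5:**
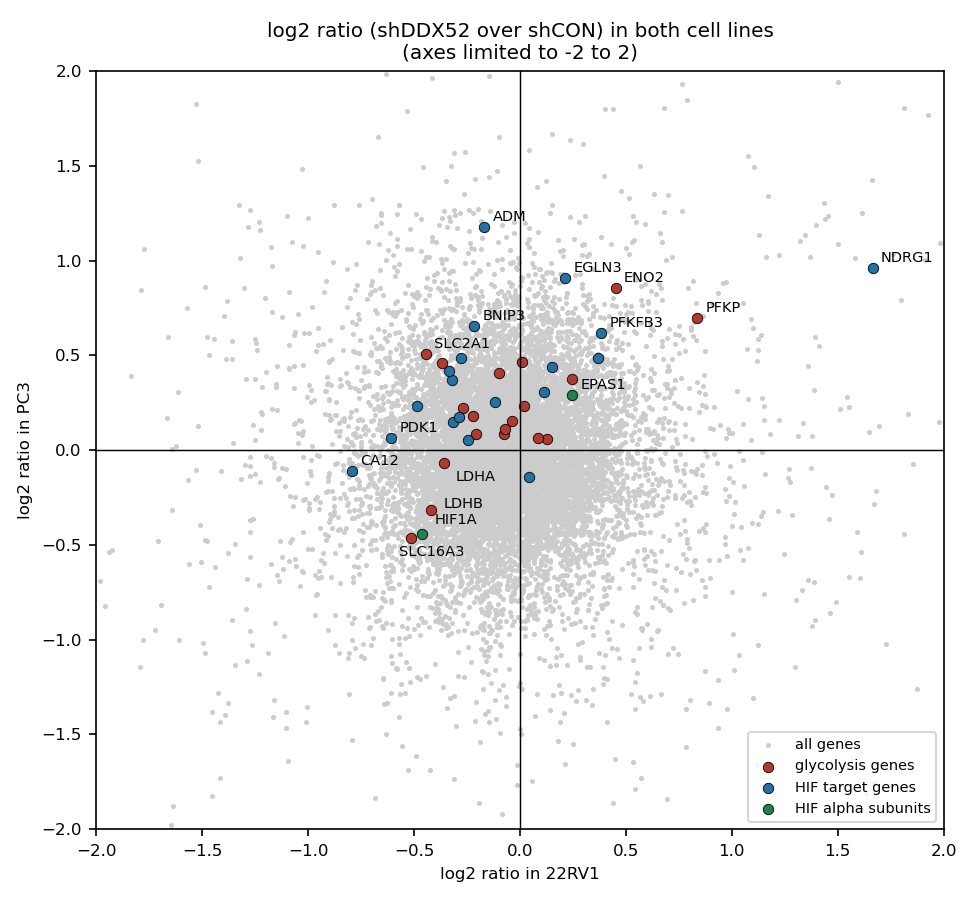
Log2 ratio of shDDX52 over shCON in 22RV1 (x axis) against PC3 (y axis), with all genes in grey and the members coloured by group. Most members lie above the horizontal zero line, 20 of them to the left of the vertical one, and NDRG1 and PFKP stand at the upper right.

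Other genes of these pathways were taken from lists, which were drawn up with earlier results of these data known. Their counts and medians therefore describe the choice and support nothing. Among 35 further HIF targets, 26 of the 32 tested in PC3 were higher with shDDX52 and 6 lower, with a median log2 ratio of 0.35, and 10 were at least 1.5-fold higher and 1 lower, where 46.3% of all genes were higher, 8.95% at least 1.5-fold higher and 9.84% at least 1.5-fold lower. In 22RV1, 12 of 28 were higher and 16 lower, close to the 58.8% of all genes that were lower, with a median of −0.11. There 4 were at least 1.5-fold higher and 4 at least 1.5-fold lower, where 5.61% and 8.47% of all genes were. IGFBP3, which binds insulin-like growth factors, was 71.4 and 154 TPM in 22RV1 and 261 and 736 TPM in PC3 (log2 ratios 1.10 and 1.49). WSB1 was 5.17 and 17.5 TPM in PC3 and 15.8 and 16.3 TPM in 22RV1. The related repressors BHLHE40 and BHLHE41 went opposite ways in PC3, from 17.6 to 43.6 TPM and from 48.8 to 20.5 TPM. In 22RV1 each went the other way at low levels, BHLHE40 at 1.44 and 0.9 TPM and BHLHE41 at 0.15 and 1.2 TPM. BHLHE40 and IGFBP3 also respond to signals other than oxygen.

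Among 28 other glycolysis and pyruvate genes, 14 of the 17 tested in 22RV1 and 10 of the 15 tested in PC3 were lower with shDDX52, where 58.8% and 53.5% of all genes were. PDHA1, a subunit of the pyruvate dehydrogenase that PDK1 inhibits, was 126 and 94.8 TPM in 22RV1 and 227 and 140 TPM in PC3 (log2 ratios −0.41 and −0.70). The phosphatases that switch this enzyme on were higher in PC3, PDP1 from 11.1 to 20.2 TPM and PDP2 from 2.74 to 5.4 TPM. In 22RV1 both were slightly lower, PDP1 at 1.17 and 0.89 TPM and PDP2 at 6.89 and 6.33 TPM. Among the 14 glycogen and pentose phosphate genes, 7 were higher and 7 lower in 22RV1, and 6 were higher and 8 lower in PC3, splits close to those of all genes. PGM1, which links glycogen to glycolysis, was 26.0 and 16.8 TPM in 22RV1 and 96.5 and 72.7 TPM in PC3. Of the HIF machinery, 6 of the 11 genes tested in 22RV1 and 8 of the 12 tested in PC3 were higher. Of all genes, 40.9% and 46.3% were. HIF1AN, an asparaginyl hydroxylase that inhibits HIF, was 4.38 and 7.15 TPM in PC3 and 12.3 and 8.74 TPM in 22RV1.

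A list of 19 ATF4 and unfolded protein response genes held some that are also hypoxia-responsive. It too was drawn up with earlier results of these data known, so its counts describe the choice. With shDDX52, 19 of 19 were lower in 22RV1, where 58.8% of all genes were. In PC3, 10 of the 18 tested were higher, where 46.3% of all genes were. The median log2 ratios of this list were −0.59 and 0.082, and its part in the values of the HIF targets was not tested.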

How the data were processed

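Total RNA of shCON and shDDX52 cells was sequenced in 22RV1 and PC3, giving 4 libraries of 1 condition each. The authors deposited TPM for each Ensembl gene, in 1 table for each cell line. The submitters' processing notes name CASAVA, HISAT2 and hg19, whereas 2218 of the identifiers are numbered above any in GENCODE 29, so the annotation behind the TPM is unsure and no coordinate of a measured gene is given. The quantification program and filters are not given in the sources used here. Reads shared with pseudogene copies, found by symbol for 17 of the 42 members, can affect single values.

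Symbols came from a table of gene names (42020 of 60671 identifiers) and gene types from GENCODE 29. Libraries were grouped by title. The log2 ratio used a pseudocount of 1 and a minimum of 1 TPM in either library. A call was a 1.5-fold change, read beside the share of all genes past it. Members and lists were chosen with earlier results of these data known. Values are given for members past 1.5-fold, the highest member of each group, HIF1A and EPAS1, families by shares, and, from other lists, up to 5 genes past 1.5-fold with at least 5 TPM. Values of further members, SLC16A1, TIGAR in 22RV1 and the genes named under other observations were added after values were seen. Values of some genes of the other lists are not reported here. Ratios were tested on simulated data. Promoters are from RefSeq (GRCh38.p14). Alternatives covered the pseudocount, filter, scaling, fold and list members. Calculations used scipy 1.17.1, pandas 2.3.3 and numpy 2.4.6 in Python 3.11.15, with plots from matplotlib 3.10.9.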

Additional observations from a re-analysis of the deposited data

Results flagged for a closer look

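Opposite directions in the cell lines drew attention to the following values, and with 1 library per condition the difference between the cell lines was not tested. The median log2 ratio of the members was −0.14 in 22RV1 and 0.23 in PC3. For the glycolysis genes it was −0.077 and 0.18, and for the HIF target genes −0.22 and 0.34, 22RV1 first. The median of all genes was −0.076 and −0.036. Members at least 0.32 from 0 in opposite directions on the log2 scale were SLC2A1, with −0.45 in 22RV1 and 0.51 in PC3, HK2, with −0.37 and 0.46, and P4HA2, with −0.33 and 0.42.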

How the results depend on the processing

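The 58 results, 14 of them shares of all genes past a threshold, were recomputed under alternative settings, which gave 280 values. Of these values, 220 kept their sign and stayed within 0.1 on the log2 scale, or within 1.5 times for a count or share. Another 57 moved further and 3 changed sign. The cause was not tested. The alternative with at least 10 TPM was chosen after seeing the data. No paired analysis was possible because replicates were lacking. After rescaling to nuclear protein-coding genes, the PC3 medians were 0.36 for the members, 0.30 for the glycolysis genes and 0.47 for the HIF targets. Then 12 members were at least 1.5-fold higher, but the share of all genes past 1.5-fold was not computed under this scaling. Without mitochondrially encoded, rRNA and snRNA genes, the PC3 medians were 0.34 for the members and 0.44 for the HIF targets. These scalings moved the median of all genes in PC3 from −0.036 to 0.087 and 0.059. At 2-fold, 1 member was higher and 0 lower in 22RV1, and 1 was higher in PC3. The 2 members at least 1.5-fold lower in 22RV1 became 0 with a pseudocount of 5 or at least 5 TPM, and 1 after centring on all genes or without members that have a pseudogene copy. The log2 ratio of GAPDH in 22RV1 changed sign after centring, to 0.0057, and that of LDHA in PC3 without mitochondrially encoded, rRNA and snRNA genes, to 0.039, and over nuclear protein-coding genes, to 0.065. The median of the glycolysis genes in 22RV1 went to −0.0014 after centring, so its sign carries little. The other medians of the members, glycolysis genes and HIF targets had the same sign under each alternative run. Read depth is unknown from TPM, which leaves the precision of members near 1 TPM unknown.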

Other observations

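Some isoenzymes outside the set differed between the cell lines more than with knockdown, and were picked out after their values were seen. PGAM2, the muscle form of phosphoglycerate mutase, was 717 TPM in 22RV1 with shCON and 737 TPM with shDDX52, but 0.28 and 0.85 TPM in PC3. It held 59.3% of the phosphoglycerate mutase TPM in 22RV1 shCON and 0.0579% in PC3 shCON. FBP1, a gluconeogenic enzyme that opposes phosphofructokinase, was listed at 0 in 22RV1 shCON and was 0.14 TPM in 22RV1 shDDX52, against 79.1 and 76.5 TPM in PC3.

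DDIT4, an inhibitor of mTOR signaling induced by HIF and by ATF4, went in opposite directions. It was 53.9 and 28.8 TPM in 22RV1 (log2 ratio −0.88), and 57.4 and 115 TPM in PC3 (log2 ratio 0.99). ATF4 itself was 783 and 593 TPM in 22RV1 and 345 and 392 TPM in PC3.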
